A study of Mus musculus with 96 samples.

Results

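Protocadherins are cell-adhesion proteins of the cadherin superfamily, and their genes were followed here through the chromatin of sorted mouse hippocampal nuclei. The members are all peaks whose annotated gene symbol starts with Pcdh in the tables of 3 antibodies (H3K4me3, H3K27me3 and Suz12) and 2 nuclear fractions. They numbered 24 of 22815 peaks and belonged to 18 of 13117 genes. The study profiled WT, Mutyh-/-, Ogg1-/- and DKO mice, the last lacking both genes, to ask whether these DNA glycosylases shape histone marks and Polycomb binding in neurons and in other cells. All mice were males of 6 months on a C57BL/6N background, kept under standard housing. Hippocampi of several animals of 1 genotype were pooled before sorting into NeuN+ nuclei, which are neuronal (excitatory neurons and interneurons together), and NeuN- nuclei, which are mostly glial. Each of the 6 tables held 3 libraries of each of the 4 genotypes.

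Protocadherins fall into a clustered and a non-clustered group. The clustered genes stand in tandem in the Pcdha, Pcdhb and Pcdhg arrays, where almost every isoform has its own promoter and first exon. A single neuron is known to choose a few of the alternate isoforms, whereas the C-type isoforms (Pcdhac1, Pcdhac2, Pcdhgc3, Pcdhgc4 and Pcdhgc5) are used more broadly, and the resulting surface code lets a neuron recognise its own branches. The non-clustered delta protocadherins mark sets of neurons and take part in axon guidance and synapse formation. H3K4me3 sits at active or poised promoters, H3K27me3 is written by Polycomb repressive complex 2 (PRC2), and Suz12 is a core subunit of that complex. Ogg1 excises oxidised guanine from DNA, and Mutyh excises adenine paired with it.

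Outside the clusters, 9 of 12 genes had an H3K4me3 peak window in NeuN+ nuclei. They took in all 5 delta-2 protocadherins (Pcdh8, Pcdh10, Pcdh17, Pcdh18 and Pcdh19), 2 of 4 delta-1 protocadherins (Pcdh1 and Pcdh9), Pcdh15, a component of the tip links of hair cells, and Pcdh20. Pcdh11x and Pcdh12 had no window in any table. The sequences that follow are taken from windows of non-clustered genes (300 bases, or the longest stretch free of annotated UTR) in the RefSeq copy of the GRCm38.p6 genome, read 5′ to 3′ on the strand of the gene, with each CpG in capitals. The first pair lies in coding exons of Pcdh10 and Pcdh17, whose windows were called in both fractions, the third upstream of Pcdh8, where the Mutyh-/- libraries stood above WT, and the fourth in a coding exon of Pcdh7, a member in NeuN- nuclei only. The last pair contrasts the Pcdh18 promoter, an H3K4me3 window, with the distant H3K27me3 window annotated to the same gene.
Pcdh10 H3K4me3, chr3:45380271-45380570, plus strand: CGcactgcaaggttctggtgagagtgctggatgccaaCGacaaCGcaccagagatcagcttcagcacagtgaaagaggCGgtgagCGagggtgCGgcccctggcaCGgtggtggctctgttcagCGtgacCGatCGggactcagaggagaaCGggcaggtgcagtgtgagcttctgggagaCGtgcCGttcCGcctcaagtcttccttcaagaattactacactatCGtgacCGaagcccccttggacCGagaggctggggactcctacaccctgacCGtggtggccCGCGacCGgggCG
Pcdh17 H3K4me3, chr14:84446572-84446871, plus strand: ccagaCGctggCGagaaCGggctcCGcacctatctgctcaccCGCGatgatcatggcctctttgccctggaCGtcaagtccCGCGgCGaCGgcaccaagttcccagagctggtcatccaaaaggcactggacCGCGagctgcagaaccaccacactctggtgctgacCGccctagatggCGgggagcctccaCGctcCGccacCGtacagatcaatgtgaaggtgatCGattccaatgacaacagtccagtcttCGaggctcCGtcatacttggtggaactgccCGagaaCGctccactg
Pcdh8 H3K4me3, chr14:79773973-79774272, minus strand: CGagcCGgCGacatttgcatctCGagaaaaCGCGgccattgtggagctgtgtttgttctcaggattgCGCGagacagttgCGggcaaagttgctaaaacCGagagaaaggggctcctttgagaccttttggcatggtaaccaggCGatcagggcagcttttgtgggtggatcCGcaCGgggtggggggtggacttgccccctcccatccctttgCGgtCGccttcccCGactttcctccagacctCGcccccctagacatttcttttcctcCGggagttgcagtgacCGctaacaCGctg
Pcdh7 H3K4me3 (NeuN-), chr5:57719133-57719432, plus strand: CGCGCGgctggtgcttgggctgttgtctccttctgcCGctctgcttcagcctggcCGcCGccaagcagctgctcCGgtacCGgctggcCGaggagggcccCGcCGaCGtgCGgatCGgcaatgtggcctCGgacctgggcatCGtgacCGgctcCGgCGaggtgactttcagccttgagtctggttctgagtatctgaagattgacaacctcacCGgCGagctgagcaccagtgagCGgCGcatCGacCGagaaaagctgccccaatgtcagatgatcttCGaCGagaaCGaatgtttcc
Pcdh18 H3K4me3, chr3:49757317-49757426, minus strand: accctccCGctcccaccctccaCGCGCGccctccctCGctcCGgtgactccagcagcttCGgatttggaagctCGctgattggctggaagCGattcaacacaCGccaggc
Pcdh18 H3K27me3, chr3:49939844-49940143, minus strand: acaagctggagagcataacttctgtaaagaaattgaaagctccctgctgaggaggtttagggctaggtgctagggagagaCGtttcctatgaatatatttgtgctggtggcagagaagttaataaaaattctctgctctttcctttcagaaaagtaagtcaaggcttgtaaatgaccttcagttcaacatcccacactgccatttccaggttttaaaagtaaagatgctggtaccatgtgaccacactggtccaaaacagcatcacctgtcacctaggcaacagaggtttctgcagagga

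The printed stretches of Pcdh10, Pcdh17, Pcdh8 and Pcdh7 hold 22, 23, 20 and 28 CpGs in 300 bases. The Pcdh18 promoter stretch holds 10 in 110 bases, and the Pcdh18 H3K27me3 stretch holds 1 in 300. Over the whole 401 bp, the 15 H3K4me3 windows in NeuN+ nuclei had a median of 23 CpGs, against 35 over all 12628 windows of that table. The 5 windows in NeuN- nuclei had a median of 31, against 42 over all 3270. Among the 4 H3K27me3 windows the median was 12.5, against 5 over all 4132.

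Values are normalised read counts, that is, reads in a peak window divided by a scaling factor of the library, and every member window was 401 bp long. Total reads in windows ran from 96023 to 548706 per library for H3K4me3 in NeuN+ nuclei, from 23794 to 52344 for H3K27me3 in NeuN+ nuclei and from 39320 to 120004 for H3K4me3 in NeuN- nuclei. A member window held 0 to 63, 0 to 14 and 0 to 25 reads per library in these tables, so single values carry a large counting error, which the spread between libraries includes. The study called differentially enriched regions (DERs) by a p under 0.05 without adjustment together with a log2 fold change beyond 0.5 in either direction. This DER rule was applied here to limma fits of each table, whereas the study used edgeR. The counts given here are therefore not those of the study. In each table the 3 knockout comparisons share its WT libraries. The shallowest library of H3K4me3 in NeuN+ nuclei was DKO replicate 1. The sort was visible in the marker genes, since 9 of 10 neuronal markers had an H3K4me3 window in NeuN+ nuclei and 0 of 10 in NeuN- nuclei. Only 2 of 22 markers of other cell types (Olig1 and Slc1a2) had one in NeuN- nuclei, against 3 of 22 (Mbp, Slc1a2 and Slc1a3) in NeuN+ nuclei, and Gfap, Aqp4 and Cx3cr1 had none in either. The H3K4me3 window at the Ogg1 promoter held 6.15 to 17.9 in Ogg1-/- and 5.85 to 15.4 in WT NeuN+ libraries, with medians of 13.8 and 10.8, and 0 to 14.5 in DKO, with a median of 5.31. A window at a promoter need not lie in the deleted part, so it does not check the genotype labels.

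The 18 genes were spread unevenly over the marks. H3K4me3 in NeuN+ nuclei had 15 windows at 14 Pcdh genes, of 12628 windows. H3K4me3 in NeuN- nuclei had 5 windows at 5 genes, of 3270, and H3K27me3 in NeuN+ nuclei had 4 windows at 4 genes, of 4132. Suz12 in NeuN+ nuclei (775 windows), H3K27me3 in NeuN- nuclei (1698 windows) and Suz12 in NeuN- nuclei (312 windows) had 0. GENCODE M21 lists 69 Pcdh genes, of which 20.3% had an H3K4me3 window in NeuN+ nuclei, against 49.2% of 21924 protein-coding genes. The corresponding shares were 7.25% and 13.5% for H3K4me3 in NeuN- nuclei, and 5.80% and 8.17% for H3K27me3 in NeuN+ nuclei. The tables list called peaks only, so a gene without a window has no value rather than a value of 0.

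**Figure D1:**
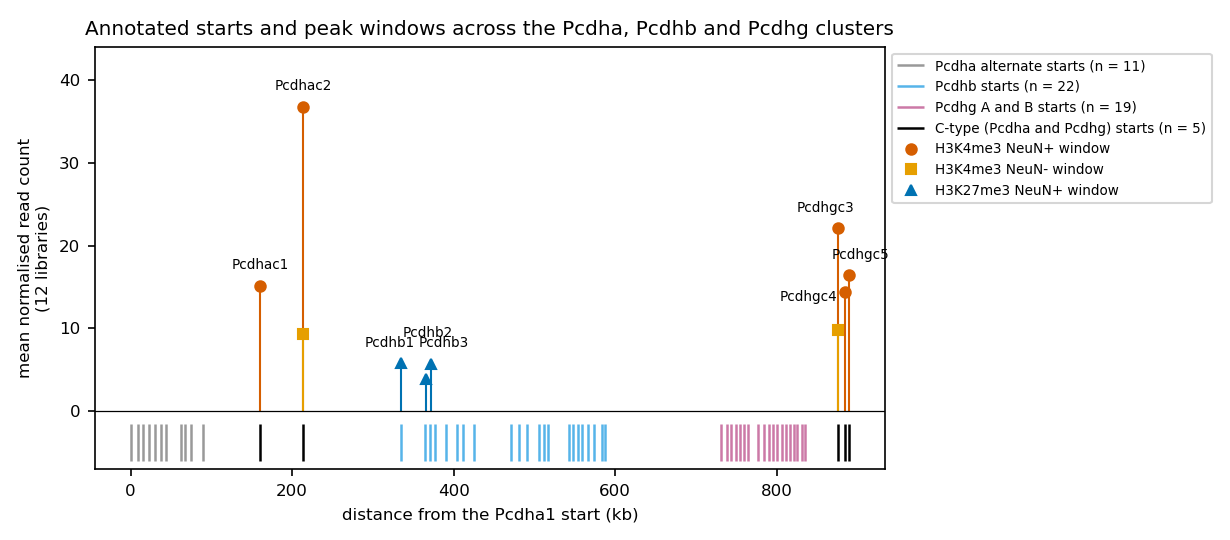
Peak windows across the clustered protocadherin genes on chromosome 18. The horizontal axis gives the distance from the Pcdha1 start in kb, ticks under the line are the annotated starts of 57 genes by class, and markers above it are windows at their mean normalised read count over 12 libraries (tables were scaled separately). The 5 orange circles stand at the 5 C-type starts, with Pcdhac2 highest at 36.8, and the 3 blue triangles stand at the first Pcdhb genes.

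In the clustered arrays, the H3K4me3 windows of NeuN+ nuclei lay at the C-type isoforms. All 5 C-type genes had a window, and 0 of the 52 alternate isoforms did (11 Pcdha, 22 Pcdhb and 19 Pcdhg A and B genes). The same split was found with any H3K4me3 window within 1000 bp of a coding start, whatever gene it was annotated to. In NeuN- nuclei 2 of the 5 C-type genes (Pcdhac2 and Pcdhgc3) and again 0 of the 52 alternate isoforms had an H3K4me3 window. Fewer nuclei with a mark and less mark per nucleus cannot be told apart in such bulk samples.

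By exact match, nearly all 75-base sequences at the alternate starts occurred once in the genome. Near-identical copies were not searched, and coding exons further downstream were covered only by the member windows. Over the 401 bp around the start, the median share of positions whose 75-base sequence occurs once in the genome was 100% in each class, and the lowest single start had 94.2%. All 24 member windows were unique at every position except that of Pcdhb3, at 92.7%. The starts did differ in base composition. The 52 alternate starts had a median of 10 CpGs in 401 bp and at most 20, whereas the C-type starts had a median of 23 and ran from 7 (Pcdhgc5) to 31 (Pcdhgc3). Non-clustered starts had a median of 22, from 4 (Pcdh20) to 42 (Pcdh1). CpG number and window did not go together in every case, as Pcdhgc5 (7), Pcdh20 (4) and Pcdh15 (12) had a window within 1000 bp of a coding start while Pcdhga11 and Pcdhgb5 (20 each) had none. The letters CGCT, the core of a promoter element known in clustered protocadherins, were found on either strand between 250 bases before and 50 after the start in 11 of 11 alternate Pcdha, 21 of 22 Pcdhb, 18 of 19 Pcdhg A and B and 5 of 5 C-type genes. The 4 letters were also present in 61.8% of 32851 RefSeq promoters of that length. A second pattern searched in the same way, AGNNGGC (N, any base), was found in 3 of 11 alternate Pcdha and 5 of 22 Pcdhb genes. It was also found in 3 of 19 Pcdhg A and B genes, 5 of 5 C-type genes and 59.8% of the RefSeq promoters.

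**Figure D2:**
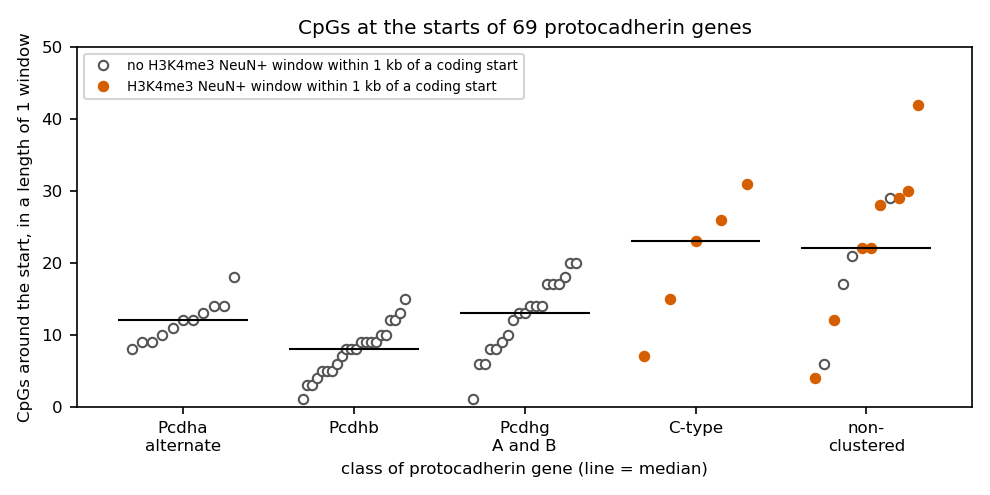
CpGs in the 401 bp around the start of each of 69 protocadherin genes, by class. Each point is 1 gene, filled where an H3K4me3 NeuN+ window lay within 1 kb of a coding start, and lines are class medians. None of the 52 alternate starts, with 1 to 20 CpGs, is filled, all 5 C-type starts are, and 8 of 12 non-clustered starts are.

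Several windows did not lie at the start of the coding transcript of their gene. The Pcdh10 window (chr3:45380221-45380621) lay 1994 bp downstream of the nearest coding start and the Pcdh17 window (chr14:84446522-84446922) 3159 bp downstream, both within coding sequence. The Pcdh8 window (chr14:79773923-79774323), annotated as distal intergenic, had its centre at -2811 bp from it. Of the Pcdh15 windows, that at chr10:73821799-73822199 covered a coding start, while that at chr10:73098794-73099194 was centred at -722873 bp from it, at the start of a transcript annotated with a retained intron. The windows of Pcdhac1, Pcdhac2, Pcdhgc3, Pcdhgc4 and Pcdhgc5 were centred 180 to 663 bp downstream of the starts, each in the isoform's own coding exon. Annotation by nearest start also hid windows. Within 1000 bp of a Pcdh10 coding start, NeuN- nuclei had an H3K4me3 window that was not annotated to Pcdh10, and NeuN+ nuclei had none. In NeuN+ nuclei a window at chr5:57717905-57718305 covered the Pcdh7 start, with 16.7 ± 2.60 (SD, n = 3) in WT. It was annotated to the neighbouring 4932441J04Rik, whose start it also covered, so its mark cannot be assigned to either gene alone. This window did not overlap the Pcdh7 window of NeuN- nuclei (chr5:57719060-57719460). Likewise a window annotated to Gm9748 lay inside Pcdh8 (chr14:79770081-79770481), with 29.1 ± 17.6 (SD, n = 3) in WT, and H3K27me3 in NeuN- nuclei had a Gm9748 window in the same gene (chr14:79768876-79769276) with 6.78 ± 4.51 (SD, n = 3).

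H3K4me3 levels in NeuN+ nuclei were low among all peaks of this mark. Only 1 of the 15 windows, that of Pcdhac2, exceeded the median of all windows, and the median member stood at percentile 22.9. Their median mean value was 16.4, against 23.7 over all windows. The share annotated to a promoter was 93.3%, against 93.2% of all windows. Because all windows have the same length, the means over 12 libraries can be ordered. Pcdhac2 came first at 36.8 (percentile 97), followed by Pcdhgc3 at 22.1, Pcdh10 at 20.5, Pcdh9 at 19.3, Pcdh1 at 18.9, Pcdh17 at 17.3 and Pcdh8 at 17.1. Then came Pcdhgc5 at 16.4, Pcdhac1 and Pcdh20 at 15.2 each, Pcdhgc4 at 14.4, Pcdh19 at 11.8, the Pcdh15 windows at 11.4 and 10.9, and Pcdh18 at 10.5. The values of neighbours in this order overlapped over the 12 libraries, also those of Pcdhac2 (22.6 to 52.7) and Pcdhgc3 (8.21 to 41.3). Pcdhac2 was the highest member in 9 of 12 libraries, Pcdhgc3 in 2 and Pcdh8 in 1.

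Pcdhac2 (chr18:37143819-37144219), the C-type gene at the end of the Pcdha array, gave the best measured values. Normalised read counts were 52.7, 27.3 and 33.4 in WT, 25.1, 34.9 and 39.4 in Mutyh-/-, 45.2, 23.6 and 48.4 in Ogg1-/- and 22.6, 48.3 and 40.2 in DKO. The groups overlapped throughout. Log2 fold changes against WT were -0.16 (95% CI -0.97 to 0.66), 0.03 (-0.78 to 0.85) and -0.04 (-0.86 to 0.77) for Mutyh-/-, Ogg1-/- and DKO. Pcdhgc3 (chr18:37806676-37807076), the first C-type gene of the Pcdhg array, read 24.4, 11.7 and 28.0 in WT, 8.72, 41.3 and 20.1 in Mutyh-/-, 17.9, 8.21 and 26.1 in Ogg1-/- and 29.3, 16.9 and 32.6 in DKO. The lowest and the highest values of Mutyh-/- lay further apart than those of any other genotype, and all groups overlapped.

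The other C-type genes had lower values. Pcdhac1 (chr18:37090095-37090495) read 11.6, 10.7 and 11.8 in WT, 14.2, 12.9 and 19.3 in Mutyh-/-, 22.6, 13.3 and 25.4 in Ogg1-/- and 2.26, 16.9 and 21.2 in DKO. The 3 libraries of Mutyh-/- and the 3 of Ogg1-/- were all above WT, while DKO overlapped it. Its log2 fold changes were 0.39 ± 0.62 (SE) in Mutyh-/-, 0.75 ± 0.62 in Ogg1-/- and -0.18 ± 0.62 in DKO. Pcdhgc4 (chr18:37815381-37815781) was 14 ± 5.79 (SD, n = 3) in WT and 12.7 ± 1.77, 12.5 ± 2.24 and 18.3 ± 4.32 in Mutyh-/-, Ogg1-/- and DKO. Pcdhgc5 (chr18:37820029-37820429) was 18 ± 4.14 (SD, n = 3) in WT and 14.8 ± 6.30, 17.5 ± 13.0 and 15.6 ± 11.6 in the knockouts. Both overlapped WT in every knockout.

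**Figure D3:**
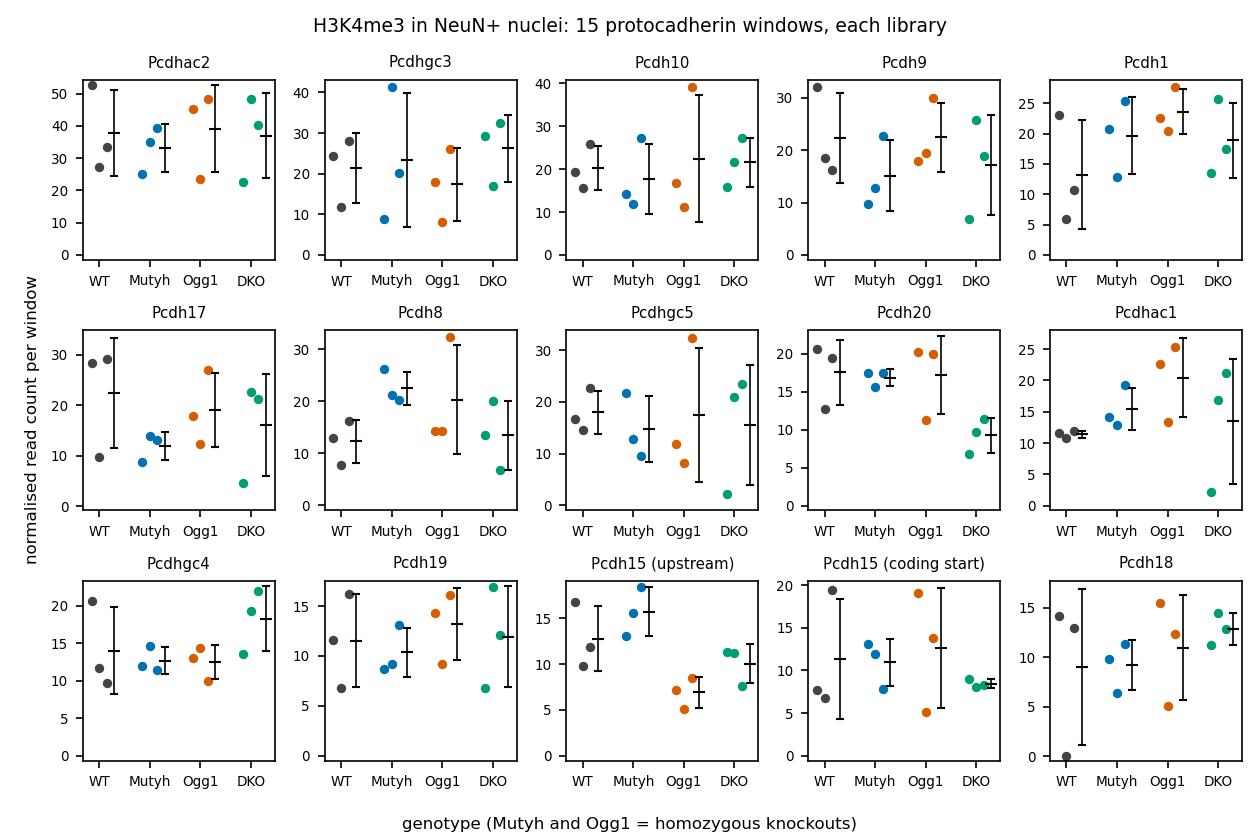
H3K4me3 in NeuN+ nuclei at the 15 protocadherin windows, ordered by mean. Points are the 3 libraries of each genotype as normalised read counts, and bars are the mean ± SD. Pcdh8 in Mutyh-/-, Pcdhac1 in Mutyh-/- and Ogg1-/-, the upstream Pcdh15 window in Ogg1-/- and Pcdh20 in DKO do not overlap WT.

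Among the delta-2 genes, Pcdh8, an activity-regulated protocadherin, stood apart most in Mutyh-/-. Its window read 12.9, 7.81 and 16.2 in WT, 26.2, 21.1 and 20.1 in Mutyh-/-, 14.3, 14.4 and 32.3 in Ogg1-/- and 13.5, 20.1 and 6.82 in DKO. All 3 Mutyh-/- libraries were above all 3 WT libraries, and the other knockouts overlapped WT. The log2 fold change was 0.87 ± 0.54 (SE) in Mutyh-/- (95% CI -0.23 to 1.96, limma adjusted p = 1.00). DKO did not carry the same value, and the departure of DKO from the sum of the single knockouts was -1.44 (95% CI -2.99 to 0.12, limma adjusted p = 1.00). The Mutyh-/- difference passed the DER rule with TMM factors in limma (0.95, with 11% of all windows called in at least 1 knockout), in edgeR with TMM factors (0.97, 9.75%) and in DESeq2 (0.99, 7.38%). The adjusted p of limma, edgeR and DESeq2 was 1.00 in each.

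Pcdh10 (OL-protocadherin) read 19.3, 15.6 and 25.8 in WT, with group means of 17.8, 22.4 and 21.6 in Mutyh-/-, Ogg1-/- and DKO. Pcdh17 was 22.4 ± 10.9 (SD, n = 3) in WT and 11.9 ± 2.76 in Mutyh-/-, a log2 difference of -0.74 ± 0.59 (SE) with overlapping libraries, and 19 ± 7.37 and 16.1 ± 10.0 in Ogg1-/- and DKO. Pcdh18 (chr3:49757026-49757426) had no read in WT replicate 2 and 14.1 and 12.9 in the other WT libraries, against 11.3, 14.5 and 12.9 in DKO. Its DKO difference was 1.22 ± 0.82 (SE). Leaving out the first WT library took it to 1.89 and past the DER rule, with 3.29% of all windows called and a limma adjusted p of 1.00. Pcdh19 (chrX:133687804-133688204), a gene of X-linked epilepsy, was 11.5 ± 4.66 (SD, n = 3) in WT and 10.3, 13.2 and 11.9 on average in the knockouts.

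Of the delta-1 genes, Pcdh1 (chr18:38210883-38211283) had the smallest unadjusted p of the 72 member tests. The centre of the window lay at -529 bp from the nearest coding start, in an intron of Pcdh1. It also lay within 2010320O07Rik, so the mark cannot be assigned to Pcdh1 alone. Its window read 23.2, 5.85 and 10.8 in WT and 22.6, 20.5 and 27.7 in Ogg1-/-, a log2 difference of 0.97 ± 0.52 (SE, 95% CI -0.09 to 2.02, limma adjusted p = 1.00). One WT library lay within the Ogg1-/- range and the others below it. Without WT replicate 1 the difference was 1.44 and past the DER rule, with 3.29% of all windows called in at least 1 knockout. It also passed with TMM factors in limma (0.91, 11% of all windows, limma adjusted p = 0.998). The same held with TMM factors in edgeR (0.81, 9.75%, edgeR adjusted p = 0.999). Pcdh9 (chr14:93890260-93890660) was 22.3 ± 8.63 (SD, n = 3) in WT and 15.1, 22.4 and 17.2 on average in Mutyh-/-, Ogg1-/- and DKO. Its libraries overlapped between all groups and WT.

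Pcdh20 and the upstream Pcdh15 window each had a knockout below WT. Pcdh20 (chr14:88470265-88470665) read 20.6, 12.7 and 19.4 in WT and 6.77, 9.65 and 11.4 in DKO, while Mutyh-/- and Ogg1-/- averaged 16.9 and 17.2. The 3 DKO libraries lay below the 3 of WT, with a log2 difference of -0.85 ± 0.53 (SE, 95% CI -1.93 to 0.23, limma adjusted p = 1.00). With TMM factors in limma it was past the DER rule, at the same log2 difference and an adjusted p of 0.845. In that setting 11% of all windows were called in at least 1 knockout. The upstream Pcdh15 window read 16.7, 9.76 and 11.8 in WT and 7.14, 5.13 and 8.46 in Ogg1-/-, a log2 difference of -0.79 ± 0.61 (SE). All 3 Ogg1-/- libraries lay below WT there. The window at the Pcdh15 coding start overlapped WT in every knockout, with 11.3 ± 7.01 (SD, n = 3) in WT and 11, 12.7 and 8.47 on average in the knockouts.

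Across these windows, the lowest library of WT, Ogg1-/- and DKO was mostly the one with the lowest level over all windows. WT replicate 2 was the lowest WT library at 13 of 15 windows, and its median over all 12628 windows was 16.6, against 27 and 24.8 in the other WT libraries. Ogg1-/- replicate 2 was lowest of its genotype at 12 of 15 windows (median over all windows 16.4, against 23.8 and 33.1) and DKO replicate 1 at 11 of 15 (15.8, against 26.5 and 25). Mutyh-/- replicates 1, 2 and 3 were lowest of their genotype at 6, 5 and 4 windows, a more even split. Their medians over all windows were 17.4, 21.1 and 26.3, and replicate 3 was highest at 9 of 15 windows. The part of these library levels in the spread of single members was not tested beyond the other scalings named above.

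By the DER rule 0 of 15 members were called for H3K4me3 in NeuN+ nuclei in any knockout. Over all 12628 windows 2.93% were, with 0.911% in Mutyh-/-, 0.966% in Ogg1-/- and 1.46% in DKO. For windows whose 3 knockout libraries all lay on one side of the 3 WT libraries, the members numbered 2 in Mutyh-/- (5.77% of all windows), 2 in Ogg1-/- (3.68%) and 1 in DKO (5.02%). Median log2 fold changes over the 15 members were -0.04, 0.03 and -0.04 in Mutyh-/-, Ogg1-/- and DKO, against -0.07, 0.08 and -0.02 over all windows. Leaving out 1 library at a time took these medians from -0.36 (without WT replicate 2) to 0.17 (without WT replicate 3) in Mutyh-/-, from -0.18 (without WT replicate 2) to 0.35 (without Ogg1-/- replicate 2) in Ogg1-/- and from -0.26 (without DKO replicate 2) to 0.27 (without DKO replicate 1) in DKO, so none kept its sign. The median distance from a fold change to its 95% CI bound was 1.11 on the log2 scale.

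H3K27me3 in NeuN+ nuclei covered the first genes of the Pcdhb array and a distant region annotated to Pcdh18. The windows of Pcdhb1 (chr18:37265195-37265595), Pcdhb2 (chr18:37295991-37296391) and Pcdhb3 (chr18:37302341-37302741) lay 457, 1351 and 1742 bp downstream of the starts, each within the single coding exon of the isoform. None of the other 19 Pcdhb genes had a window. The Pcdh18 window (chr3:49939794-49940194) was centred at -182678 bp from the nearest Pcdh18 start, within an intron of a transcript of Slc7a11, a cystine transporter subunit. Means over 12 libraries were 5.77, 3.90, 5.75 and 3.6, at percentiles 62, 29, 61.7 and 23.6 of the table.

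Values were spread widely in each genotype. Pcdhb1 read 15.3, 1.11 and 5.17 in WT, 4.06, 9.95 and 5.99 in Mutyh-/-, 3.96, 5.23 and 3.08 in Ogg1-/- and 2.19, 1.94 and 11.2 in DKO. Pcdhb2 read 11, 2.21 and 5.17 in WT, 3.04, 0 and 0.999 in Mutyh-/-, 6.94, 0 and 1.03 in Ogg1-/- and 8.74, 2.91 and 4.81 in DKO. At Pcdhb2 both single knockouts had lower means than WT and DKO, with overlapping libraries. The departure of DKO from the sum of the single knockouts was 2.89 on the log2 scale for Pcdhb2 (95% CI -0.07 to 5.84, limma adjusted p = 0.989). Pcdhb3 read 12.0, 1.11 and 0 in WT and 10.9, 0 and 14.4 in Ogg1-/-, a log2 difference of 0.91 ± 1.01 (SE). Without Ogg1-/- replicate 2 it was 2.16 and past the DER rule, with 9.63% of all windows called and a limma adjusted p of 1.00. The Pcdh18 window had no read in 4 of 12 libraries and at most 12 reads in any. Between the Pcdhb and Pcdhg arrays a further H3K27me3 window, annotated to Taf7 (chr18:37651888-37652288), averaged 7.12 and is no member.

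By the DER rule 0 of 4 H3K27me3 members were called in any knockout, against 9.39% of all windows (3.78%, 3.82% and 3.36% in Mutyh-/-, Ogg1-/- and DKO). Median log2 fold changes over the 4 members were -0.32, 0.15 and -0.17, against -0.21, -0.11 and -0.01 over all windows. Leaving out 1 library at a time, they ran from -0.66 (without Mutyh-/- replicate 1) to -0.01 (without WT replicate 1), from -0.27 (without Ogg1-/- replicate 2) to 0.46 (without WT replicate 1) and from -0.62 (without DKO replicate 3) to 0.44 (without WT replicate 1). No knockout stood clear of WT at any of them, against 9.15%, 9.17% and 9.08% of all windows. The median distance to the 95% CI bound was 2.03 on the log2 scale. An H3K27me3 or Suz12 window overlapped an H3K4me3 window at 0 of the 14 Pcdh genes with H3K4me3 in NeuN+ nuclei, against 2.54% of 11512 genes, a share too low to read anything from the 0. By symbol alone, 1 of the 14, Pcdh18, also had an H3K27me3 or Suz12 window, against 8.22% of 11512 genes. Its windows stood 182368 bp apart. The H3K27me3 window nearest to a C-type H3K4me3 window was that of Pcdhb1, 120976 bp from Pcdhac2.

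**Figure D4:**
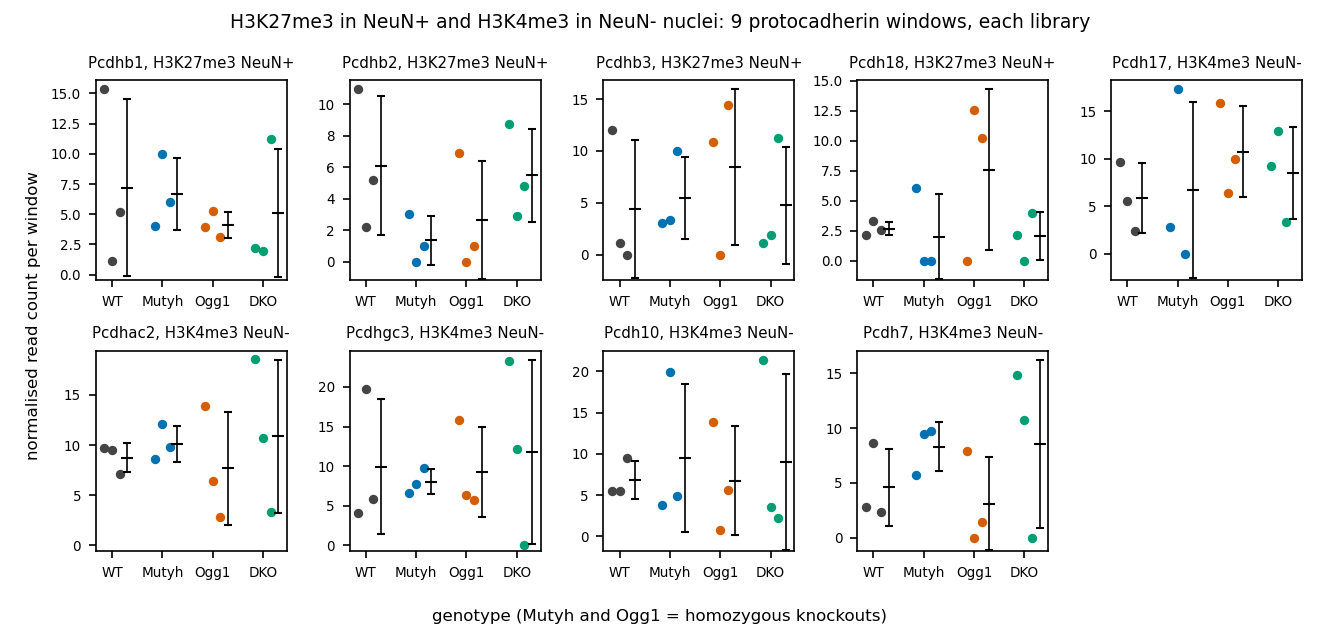
The 4 H3K27me3 windows in NeuN+ nuclei and the 5 H3K4me3 windows in NeuN- nuclei. Points are the 3 libraries of each genotype as normalised read counts and bars are the mean ± SD. Every knockout overlaps WT at all 9 windows, and 6 of the 9 have at least 1 library without a read.

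H3K4me3 in NeuN- nuclei covered Pcdh10, Pcdh17, Pcdhac2, Pcdhgc3 and Pcdh7. At the first 4 genes a NeuN+ window overlapped that of NeuN- nuclei by 400, 225, 333 and 354 bp. Pcdhac2 was 37.8 ± 13.3 (SD, n = 3) in WT NeuN+ nuclei and 8.74 ± 1.43 in WT NeuN- nuclei. The tables were scaled separately and hold peak lists of different length, so these levels are given side by side and not compared.

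Within NeuN- nuclei the members lay below the median of all windows at 5 of 5. Pcdhgc3 had the highest mean, with 4.15, 19.7 and 5.91 in WT, 6.66, 7.78 and 9.75 in Mutyh-/-, 15.8, 6.38 and 5.68 in Ogg1-/- and 23.2, 12.2 and 0 in DKO. Pcdh17 was the highest member in 6 of 12 libraries, with 9.68, 5.52 and 2.36 in WT and 15.8, 6.38 and 9.94 in Ogg1-/-. Pcdh10 read 5.53, 5.52 and 9.45 in WT and 21.4, 3.57 and 2.23 in DKO. Pcdh7 (chr5:57719060-57719460), a delta-1 protocadherin, read 2.77, 8.67 and 2.36 in WT and 5.71, 9.51 and 9.75 in Mutyh-/-. Its log2 difference in Mutyh-/- was 0.88 ± 1.11 (SE). All groups overlapped WT at all 5 windows, and DKO replicate 3 was the lowest DKO library at 5 of 5.

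By the DER rule 0 of 5 members in NeuN- nuclei were called in any knockout, against 6.42% of all windows (2.94%, 3.36% and 2.29% in Mutyh-/-, Ogg1-/- and DKO). Median log2 fold changes were 0.14, -0.37 and 0.05, against 0.22, 0.25 and 0.05 over all windows. With 1 library left out, the Mutyh-/- median was lowest at 0.01 (its replicate 2 omitted) and highest at 0.39 (its replicate 3 omitted). That of Ogg1-/- was -0.86 without its replicate 1, 0.23 without its replicate 2 and 0.12 without its replicate 3, and that of DKO was -0.54 without its replicate 1 and 0.95 without its replicate 3, so neither kept its sign. No knockout stood clear of WT at any of them, against 9.24%, 8.29% and 5.02% of all windows. The median distance to the 95% CI bound was 1.98 on the log2 scale. Whether a knockout acted differently in the fractions was tested at the 4 shared genes, among 3000 H3K4me3 windows that overlap 1 to 1. The 12 differences between fractions ran from -1.04 (Pcdh17, DKO) to 0.72 (Pcdhgc3, DKO), with SEs of 0.80 to 1.18. None was called, against 2.3%, 1.8% and 1.8% of all shared windows for Mutyh-/-, Ogg1-/- and DKO, and 0 had an unadjusted p under 0.05.

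**Figure D5:**
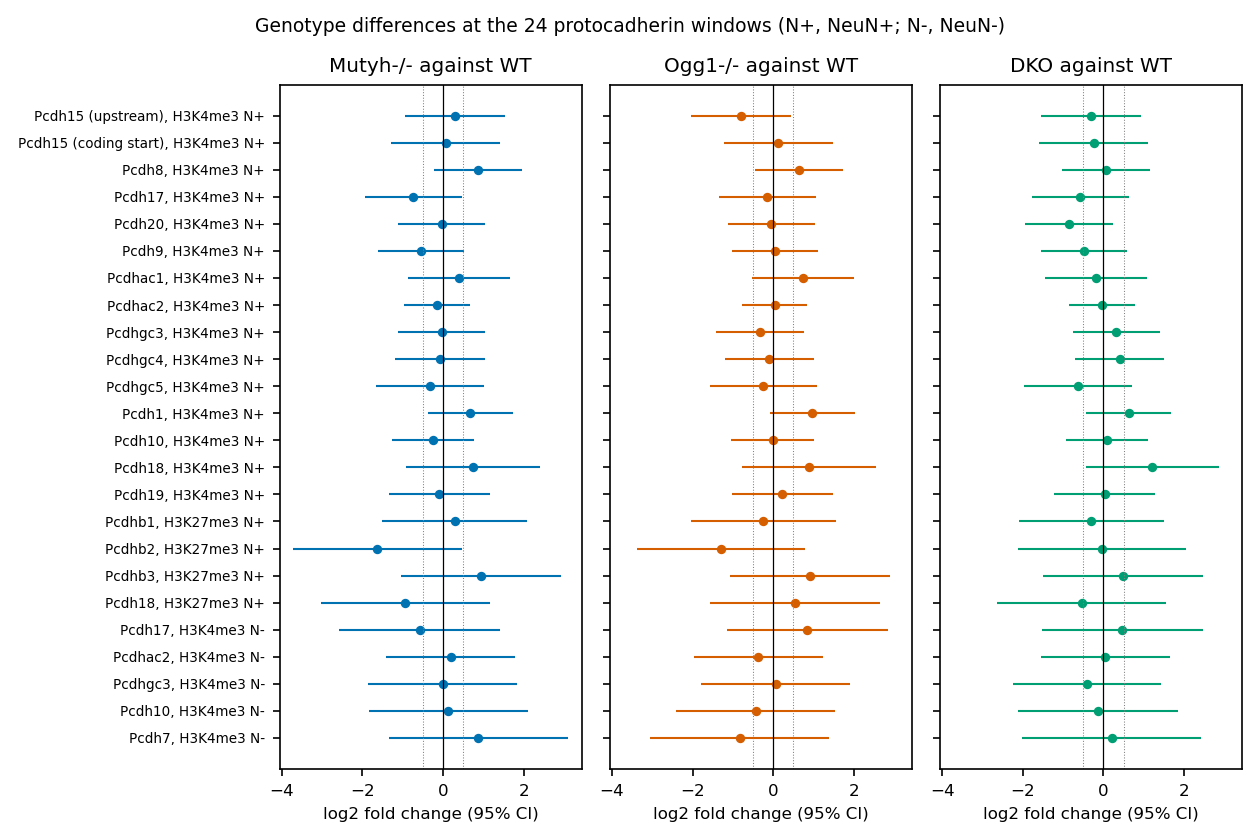
Log2 fold change against WT with its 95% CI from limma for the 24 protocadherin windows (N+, NeuN+; N-, NeuN-), on the log2(value + 1) scale. Dotted lines mark 0.5 in either direction, and all 72 intervals include 0.

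Over all 72 comparisons of a member with WT, 0 passed an adjusted p under 0.05 by limma, with a smallest adjusted p of 0.983, and 0 had an unadjusted p under 0.05. Over all windows adjusted calls were 0 in each contrast of H3K4me3 in NeuN+ nuclei, 0.121%, 0.0484% and 0 for Mutyh-/-, Ogg1-/- and DKO of H3K27me3 in NeuN+ nuclei, and 0.122%, 0.0612% and 0.0306% of H3K4me3 in NeuN- nuclei. On the recovered reads 3 had an unadjusted p under 0.05 by limma with TMM factors, 2 by edgeR with TMM factors and 1 by DESeq2. By edgeR with the authors' library factors 0 had, and none passed adjustment in any of these. All were H3K4me3 windows of NeuN+ nuclei, where these settings called 11%, 9.75%, 7.38% and 2.48% of all windows in at least 1 knockout. Over the 24 tests of a non-additive DKO effect 0 passed either threshold by limma, with a smallest adjusted p of 0.989. The DER rule called 0.839%, 3.92% and 3.03% of all windows for it in H3K4me3 NeuN+, H3K27me3 NeuN+ and H3K4me3 NeuN-, and adjustment left 0, 0.0968% and 0.

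Genes that act with the protocadherins were read from a list of 39, chiefly CTCF and cohesin, which loop the clustered promoters, the silencers Smchd1 and Setdb1, the kinases and WAVE complex members downstream of the receptors, and related cadherins. Of these, 36 had H3K4me3 windows in NeuN+ nuclei, 41 windows in all. By the DER rule 1 of the 41 windows was lower than WT in Mutyh-/- (0.911% of all windows were called there) and 1 was higher in DKO (1.46%). Fyn, a kinase of protocadherin signalling, was lower in Mutyh-/-, going from 46.9 ± 8.46 (SD, n = 3) to 22.9 ± 5.53, a log2 difference of -1.01. Ret, a receptor kinase that binds protocadherins, was higher in DKO, going from 15.5 ± 10.0 (SD, n = 3) to 28.8 ± 1.5, a log2 difference of 1.01. Neither passed adjustment (limma adjusted p = 1.00 for both). Wapl, which releases cohesin, was higher in Ogg1-/- NeuN- nuclei for H3K4me3 (1 of 15 windows, log2 difference 1.68, with 3.36% of all windows called). It went from 6.38 ± 5.52 (SD, n = 3) in WT to 14.7 ± 3.79. Ret was higher in DKO NeuN- nuclei for H3K27me3 (1 of 3 windows, log2 difference 2.23). Its values lay near the floor in WT, at 0.769 ± 1.33 (SD, n = 3), and were widely spread in DKO, at 7.57 ± 6.96. Both had a limma adjusted p of 1.00. In H3K27me3 of NeuN- nuclei 2.3% of all windows were DERs in DKO. Between the Pcdhb and Pcdhg arrays the H3K4me3 window of Taf7, which encodes a subunit of the general factor TFIID, averaged 22.6 in NeuN+ nuclei, close to Pcdhgc3 at 22.1.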

How the data were processed

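ChIP-seq libraries of sorted NeuN+ and NeuN- hippocampal nuclei were analysed. The authors mapped single-end reads to GRCm38/mm10 with Bowtie2 2.3.5.1, called broad peaks with epic2, kept consensus peaks seen in at least 2 of 3 replicates, counted reads with DiffBind 3.10.1, tested with edgeR 3.42.4 and annotated with ChIPseeker 1.36, per the paper's methods and the submitters' processing notes. How duplicates and input were treated is not given in the sources used here, and the 24 input libraries were not used. The deposited signal is a normalised read count per window, reads divided by a factor per library. Recovered reads were whole for 100% of values (tolerance 0.01). The antibody of each column was taken from its table, and the columns named genotype, number and fraction.

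Each table was fitted on its own with limma-trend (limma 3.58.1, R 4.3.3) on log2(value + 1) over all windows of 12 libraries, with Benjamini-Hochberg adjustment per contrast. Fold changes on that scale understate those of low windows. Between fractions, 1 to 1 overlapping H3K4me3 windows were fitted together. Alternatives were a pseudocount of 5, no windows in the lowest 25% of mean values, robust moderation, TMM factors, edgeR 4.0.16, DESeq2 1.42.0, no repeat windows, the replicate number as a block, promoter windows and leaving out each library. Distances and UTRs follow GENCODE M21, sequences and 75-base uniqueness the RefSeq copy of GRCm38.p6. The methods describe the replicates of a genotype as independent; p-values measure the spread between these libraries of pooled animals.

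The members and lists were chosen with earlier results of these data known. Genes to be named were DERs, the highest member of each table, non-clustered genes in at least 3 tables and the C-type isoforms; no gene met the first or the third. All other members are given so that each has values, and those singled out for groups that do not overlap were chosen after their values were seen.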

Additional observations from a re-analysis of the deposited data

How the results depend on the processing

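The count of Pcdh DERs was 0 in each table and stayed 0 in H3K4me3 of NeuN- nuclei under all 22 alternatives. In H3K4me3 of NeuN+ nuclei it was 3 with TMM factors in limma (Pcdh8, Pcdh1 and Pcdh20, where 11% of all windows were called), 2 with TMM factors in edgeR (9.75%) and 1 with DESeq2 (7.38%). Leaving out 1 library gave 0 to 2, the 2 (Pcdh1 and Pcdh18) without WT replicate 1 (3.29% of all windows). In H3K27me3 of NeuN+ nuclei leaving out 1 library gave 0 to 1, the 1 (Pcdhb3) without Ogg1-/- replicate 2. The TMM alternatives move the library levels onto one scale; beyond that the cause was not tested. Counts at an adjusted p under 0.05 stayed 0 for all 72 knockout, 24 non-additive and 12 fraction tests under every alternative run. At an unadjusted p the non-additive value of Pcdh8 passed under 6 alternatives and that of Pcdhb2 under 5. The share of all windows passing for this contrast was not computed in those settings, so nothing is read from these counts. Shares called in at least 1 knockout did shift with the setting. In H3K4me3 of NeuN+ nuclei they were 2.93% in the main fit, 11% with TMM factors in limma and 2.48% in edgeR with the authors' factors.

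With the replicate number as a block, 0 members were DERs and 0 passed adjustment in limma, and the non-additive value of Pcdhb2 (2.89) passed without adjustment. Same-numbered libraries deviated together at most weakly, with correlations with WT between -0.10 and 0.12 in the tables that hold members. These were positive throughout in H3K27me3 of NeuN+ and H3K4me3 of NeuN- nuclei. The block raised the share of all windows called in at least 1 knockout from 9.39% to 13.5% and from 6.42% to 11.4% there. In H3K4me3 of NeuN+ nuclei that share went from 2.93% to 3.77%. With the fractions paired by number, the fraction tests gave 0 calls. For the 3 tables without members no alternative could give a value.

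The count of genes with both H3K4me3 and H3K27me3 or Suz12 fell from 1 to 0 with only promoter windows, to 0 when windows had to overlap by at least 1 bp, and to 0 without the lowest 25% of windows, where 7 of 14 H3K4me3 genes were left. The share over all genes fell too, from 8.22% to 3.71%, 2.54% and 4.32%. The gene list of 39, whose alternatives were added after seeing the data, had 4 DER windows in the main fit. It had 5 with TMM factors in limma, 5 with the replicate block and 3 with a pseudocount of 5. With edgeR and TMM factors it had 2, with edgeR and the authors' factors 1 and with DESeq2 2. The other settings left it at 4. In H3K4me3 of NeuN+ nuclei the shares of all windows called in at least 1 knockout were, in the same order, 11%, 3.77%, 3.15%, 9.75%, 2.48% and 7.38%, against 2.93% in the main fit. Medians over the members depended on single libraries, as the ranges given with them show. Other settings also changed signs. In H3K27me3 of NeuN+ nuclei the Mutyh-/- median (-0.32) was 0.29 without low windows, 0.14 with DESeq2 and 0.03 in edgeR with TMM factors, and the Ogg1-/- median (0.15) was -0.25 without low windows. In H3K4me3 of NeuN- nuclei the Mutyh-/- median (0.14) was -0.07 with TMM factors in limma and the DKO median (0.05) was -0.18 without low windows. The medians of H3K4me3 in NeuN+ nuclei, all within 0.05 of 0, changed sign with TMM factors for Mutyh-/- (0.03) and Ogg1-/- (-0.04) in limma and for DKO (0.06) in edgeR. DESeq2 took the median of all windows for Mutyh-/- from -0.21 to -0.05 in H3K27me3 of NeuN+ nuclei, and TMM factors in limma took it from 0.22 to 0.01 in H3K4me3 of NeuN- nuclei. Low reads limit the single windows of H3K27me3 and of NeuN- nuclei most.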
